A study of Mus musculus with 17 samples.

Results

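The growth arrest genes of the p53 and Gadd45 families were followed in mouse liver after a high-fat diet, an ethanol binge, or both. The group comprised 10 genes: Trp53, its targets Cdkn1a, Mdm2, Ccng1, Btg2, Phlda3, and Bax, and the family of Gadd45a, Gadd45b, and Gadd45g. These genes were chosen with earlier results of these data known. Every probe with 1 of these symbols in the authors' table of log2 ratios was taken, which gave 16 probes among the 41174 non-control probes of the array. All 16 passed the filter on dim probes and belonged to the 34664 probes tested, which stood for 19358 genes. Btg2 had 3 probes, Trp53, Mdm2, Ccng1, and Gadd45b had 2 each, and the other 5 genes had 1.

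Livers came from male mice on chow or on a high-fat diet, with 60% of calories as fat, for 3 months, and were taken 9 hours after a gavage. Chow mice were fed chow and received maltose (n = 4), and 1B mice were fed chow and received ethanol at 5 g/kg (n = 4). HFD mice were fed the high-fat diet and received maltose (n = 4), and HFD+1B mice were fed that diet and received ethanol at 5 g/kg (n = 5). The labels give the strain as C57BL/6N and the methods as C57BL/6J, and no group carried an engineered allele. The animals are called mouse 1 to mouse 5 by the numbers in their labels, which only name them.

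Each liver was hybridized in Cy5 on its own 2-color array against a Cy3 reference that the labels describe both as assorted mouse RNA and as liver, and the dyes were never swapped. A value is the log2 ratio of liver over reference, so the dye bias of a probe enters every group alike and levels of different genes cannot be compared. Median Cy5 signals per array were 99 to 138 for chow livers, 69 to 134 for 1B livers, 63 to 98 for HFD livers, and 90 to 158 for HFD+1B livers. All 13 hepatocyte markers were above background on every array. The 5 pancreatic acinar and 7 B cell markers were too, so this measure cannot test the tissue label. The mean of the 3 probes for ribosomal RNA was −3.68 to −2.07 in HFD livers and −1.18 to 1.03 in the other groups, so the HFD arrays stood apart in this measure. In such bulk tissue, fewer cells of a type and less RNA per cell cannot be told apart, and p-values measure the spread between these mice.

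The protein p53, the product of Trp53, is a transcription factor that is held at a low level by Mdm2, a ubiquitin ligase, and becomes stable under stress. Its targets include Cdkn1a, which encodes the cyclin-dependent kinase inhibitor p21 and holds cells before DNA replication. Gadd45 proteins are small stress proteins that act in growth arrest, DNA repair, and the MAP kinase cascades. Several of these genes, above all the Gadd45 family, Btg2, and Cdkn1a, are also known as immediate responders to cytokines, glucocorticoids, and metabolic stress in the liver, independently of p53.

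Start-site windows of Cdkn1a, Btg2, Gadd45g, and Gadd45b, 4 of the 5 genes that rose at least 2-fold in HFD+1B over chow livers, are given here to locate the sequence elements named with them. The window of the other gene, Phlda3, held none of these elements. A window holds the 250 bases before an annotated start, 5′ to 3′ on the gene's strand, from RefSeq on build GRCm38.p6. Capitals mark matches to the p53 decamer (the unit that occurs in pairs in p53 response elements), to the cyclic AMP response element TGACGTCA, and to the TATA box letters TATAAA.
Cdkn1a, chr17:29090729-29090978, plus strand: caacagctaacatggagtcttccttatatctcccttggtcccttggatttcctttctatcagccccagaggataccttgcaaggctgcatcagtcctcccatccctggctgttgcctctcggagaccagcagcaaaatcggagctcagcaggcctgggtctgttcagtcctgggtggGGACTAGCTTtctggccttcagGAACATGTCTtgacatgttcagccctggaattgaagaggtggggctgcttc
Btg2, chr1:134079156-134079405, minus strand: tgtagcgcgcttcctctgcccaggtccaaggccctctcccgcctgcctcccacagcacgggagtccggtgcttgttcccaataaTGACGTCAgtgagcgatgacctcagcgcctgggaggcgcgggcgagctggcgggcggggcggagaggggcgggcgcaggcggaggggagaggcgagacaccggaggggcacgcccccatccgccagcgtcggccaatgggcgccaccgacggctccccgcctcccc
Gadd45g, chr13:51846425-51846674, plus strand: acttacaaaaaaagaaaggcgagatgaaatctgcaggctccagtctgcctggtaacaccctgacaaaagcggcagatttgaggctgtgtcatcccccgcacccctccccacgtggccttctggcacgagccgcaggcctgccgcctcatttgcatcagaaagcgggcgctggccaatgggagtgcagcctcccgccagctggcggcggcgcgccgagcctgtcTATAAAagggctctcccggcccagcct
Gadd45b, chr10:80929841-80930090, plus strand: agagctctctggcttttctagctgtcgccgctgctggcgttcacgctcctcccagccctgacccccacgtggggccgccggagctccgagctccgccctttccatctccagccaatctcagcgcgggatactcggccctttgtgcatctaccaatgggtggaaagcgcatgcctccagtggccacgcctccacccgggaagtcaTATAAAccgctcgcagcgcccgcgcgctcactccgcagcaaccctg

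The Cdkn1a window held 2 p53 decamers, which began 73 and 51 bases before the start. It belongs to the more distal of 2 annotated Cdkn1a starts, and the window of the other start, 2790 bases downstream, held no decamer. The Btg2 window held the cyclic AMP response element, 166 bases before the start. TATAAA began 27 bases before the start of Gadd45g and 46 bases before that of Gadd45b. Both strands were searched, and the capitals did not overlap any other motif searched in these 4 windows. Among 32851 windows of all genes, 7.13% held a p53 decamer, 1.55% the cyclic AMP response element, and 12.4% TATAAA. Of the 11 windows of the 10 genes, 6 held a decamer, namely those of Cdkn1a, Mdm2, Ccng1, Gadd45a, Bax, and Trp53. No window of the 10 genes held the AP-1 site TGACTCA, the STAT site TTCCNGGAA, the C/EBP site TTGCGCAA, or a CArG box, which 4.46%, 0.913%, 0.164%, and 1.47% of all windows held. A match is a description of letters, and its absence says only that these letters are not in this window.

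Most of these genes were higher after the combined challenge. In HFD+1B compared with chow livers, 8 of 10 genes rose and none fell at an adjusted p of at most 0.05 on the brightest probe, in limma with Benjamini-Hochberg adjustment. Of all 19358 genes, 8.90% rose and 7.42% fell by the same rule. The median log2 difference of the 10 genes was 0.92, and that of all genes was 0.00044. Cdkn1a, Btg2, Gadd45g, Gadd45b, and Phlda3 rose at least 2-fold, and Gadd45a, Ccng1, and Bax rose less. Another rule asked for a 2-fold difference and an unadjusted p at or under 0.05. These 5 genes met it by construction, since they were called and at least 2-fold. Of 15 neutrophil markers, 4 rose and 1 fell in the same comparison, with a median difference of −0.03. Those that rose were Lcn2 (6.17), which hepatocytes also express in the acute phase response, S100a8 (1.46), S100a9 (1.04), and Mmp8 (0.45), while Csf3r fell by 1.04 and the granule genes Mpo, Elane, Ngp, Ltf, and Camp did not pass (−0.16 to −0.03). The mean of the 15 markers was 0.24 to 0.58 in HFD+1B and −0.33 to −0.01 in chow livers. This mean includes Lcn2, whose difference of 6.17 was the largest of the 15, whereas the median difference was −0.03. The part of neutrophils in the values of the 10 genes was not tested.

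In HFD+1B compared with HFD livers, which differ by the ethanol binge, 7 of 10 genes rose, against 11.0% of all genes that rose and 8.39% that fell. In HFD+1B compared with 1B livers, 5 of 10 rose, against 6.27% of all genes that rose and 5.18% that fell. No brightest probe of a member fell in either comparison. In HFD+1B minus HFD the count of 7 includes Trp53, Ccng1, and Mdm2, whose second probes gave −0.32 (called lower), −0.33, and 0.04, and with the mean of all probes of a gene the count was 4. All 3 ribosomal RNA probes rose in that comparison, with a median of 3.48, and their part in the values of the 10 genes was not tested. The medians of the 10 genes were 0.58 and 0.63, and those of all genes were 0.009 and −0.0083. HFD+1B livers enter all of these comparisons, and chow livers enter every comparison with chow, so the comparisons are not independent of each other.

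Fewer of the genes differed after either challenge alone. In HFD compared with chow livers, Cdkn1a, Bax, and Ccng1 rose and Mdm2 fell, against 4.48% of all genes that rose and 6.56% that fell. This count of 4 was 0 without HFD mouse 3, 1 without chow mouse 1 or 4, and 2 without chow mouse 2 or 3 or HFD mouse 4. The HFD livers were also those with low ribosomal RNA signal, whose part in these differences was not tested. In 1B compared with chow livers, Gadd45b rose and no other member passed, against 2.09% of all genes that rose and 2.05% that fell, although 3 of 10 had an unadjusted p of 0.05 or less. The medians of the 10 genes were 0.32 and 0.15. The interaction, which is the ethanol effect on the high-fat diet minus that on chow, passed for Btg2 and Ccng1, against 2.70% of all genes with a positive and 1.72% with a negative interaction. This count of 2 was 0 without chow mouse 1 or HFD mouse 4. All 3 ribosomal RNA probes also had a positive interaction that passed, with a median of 4.58. Their part in the interactions of the 10 genes was not tested.

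Both other rules for a call gave the highest count for HFD+1B minus chow. The 2-fold rule passed 5 of 10 genes there (3.03% of all genes), 1 in 1B minus chow (1.06%), 2 in HFD minus chow (1.94%), 3 in HFD+1B minus HFD (2.12%), 4 in HFD+1B minus 1B (1.91%), and 3 in the interaction (2.27%). The Tukey test after analysis of variance, which the methods name, passed 6 of 10 genes in HFD+1B minus chow after Benjamini-Hochberg adjustment (7.19% of all genes). It passed 3 in HFD+1B minus HFD (5.56%), 3 in HFD+1B minus 1B (3.05%), and none in HFD minus chow (1.65%) or 1B minus chow (1.03%), where 4 and 1 had a Tukey p of 0.05 or less before that adjustment.

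**Figure D1:**
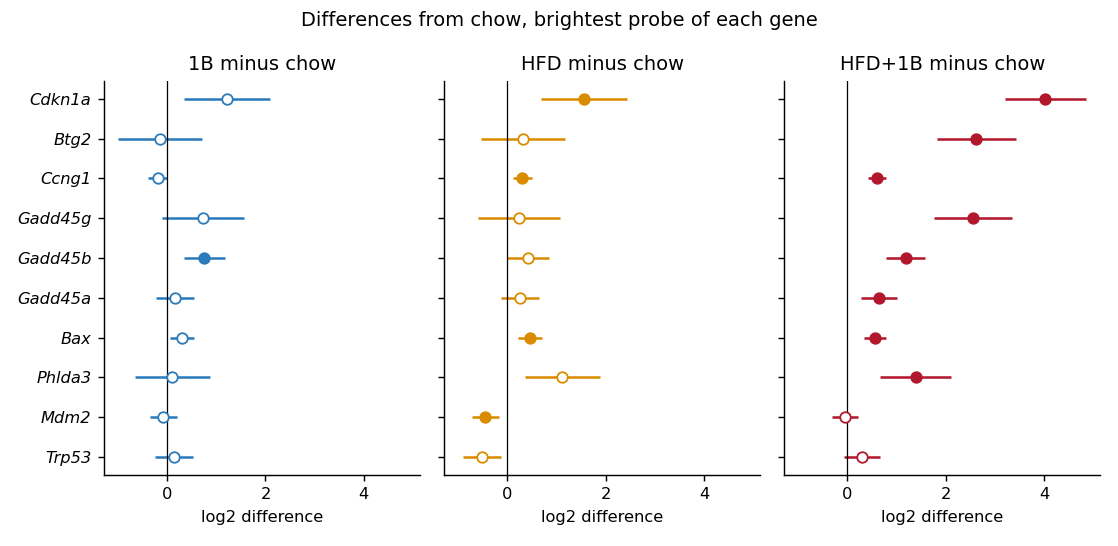
Log2 differences from chow of the 10 genes in 1B (left), HFD (middle), and HFD+1B (right) livers, each on the brightest probe. Lines are 95% confidence intervals from limma and filled points passed at an adjusted p of at most 0.05; 1 of 10 genes is filled on the left, 4 in the middle, and 8 on the right, all of the last above 0.

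Cdkn1a had the largest difference of the 10 genes. Its log2 ratios were −3.50, −2.86, −3.71, and −3.55 in chow mice 1 to 4 and −2.77, −2.62, −2.90, and −0.44 in 1B mice. They were −2.64, −1.84, −1.10, and −1.82 in HFD mice and 0.63, 0.31, 0.88, 0.47, and 0.82 in HFD+1B mice. All HFD+1B livers were above 0 and above every other liver, and all HFD livers were above all chow livers. Mouse 4 of the 1B group stood apart from the other 3, which lay just above the chow range or, for mouse 3, just below chow mouse 2.

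HFD+1B exceeded chow livers by 4.03 ± 0.39 (SE) in log2 ratio, which is 16.3-fold (95% confidence interval of the log2 difference 3.20 to 4.85, adjusted p = 2.92e-06 in limma). Within the 4 slides that held both groups, the difference was 3.68 to 4.43. HFD+1B livers were 5.54-fold above HFD livers (adjusted p = 0.000486) and 6.98-fold above 1B livers (adjusted p = 0.00022). The order of the means was chow (−3.41 ± 0.37, SD), 1B (−2.18 ± 1.17), HFD (−1.85 ± 0.63), and HFD+1B (0.62 ± 0.24), and the neighbours 1B and HFD overlapped.

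HFD alone raised Cdkn1a 2.94-fold (log2 difference 1.56 ± 0.41, adjusted p = 0.0244). This call was lost without chow mouse 1, 3, or 4 or HFD mouse 3 or 4, with adjusted p-values of 0.0543 to 0.0896 and log2 differences of 1.31 to 1.55. The 1B difference of 1.22 ± 0.41 did not pass (adjusted p = 0.136), and without 1B mouse 4 it was 0.64. The interaction was 1.25 ± 0.57 (adjusted p = 0.234) and became 1.83 (adjusted p = 0.0141) without that mouse.

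Btg2, an antiproliferative gene whose protein binds the CCR4-NOT deadenylase, was higher in HFD+1B livers than in each other group. Its brightest probe gave −2.11, −2.03, −2.85, and −2.45 in chow mice and −1.86, −2.58, −2.86, and −2.68 in 1B mice. It gave −1.64, −2.01, −1.77, and −2.72 in HFD mice and 0.90, −0.70, 0.05, 1.64, and −0.58 in HFD+1B mice. The chow, 1B, and HFD ranges overlapped throughout, and the lowest HFD+1B liver lay above the highest liver of any other group.

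The log2 difference was 2.62 ± 0.38 between HFD+1B and chow (6.17-fold, adjusted p = 0.000141), 2.30 ± 0.38 between HFD+1B and HFD (adjusted p = 0.000713), and 2.76 ± 0.38 between HFD+1B and 1B (adjusted p = 0.000211). The differences of 1B (−0.13) and HFD (0.33) from chow did not pass. Within slides, HFD+1B exceeded chow by 1.45 to 3.01 on 4 of 4. The interaction was 2.43 ± 0.56 (adjusted p = 0.0227), and it rose above the threshold without chow mouse 1 (adjusted p = 0.0502) or HFD mouse 4 (0.0532). The other probes had HFD+1B minus chow differences of 3.38 and 2.45, both called, and interactions of 2.52 (adjusted p = 0.0299) and 1.88 (adjusted p = 0.0539). All 3 probes placed the HFD+1B mice with mouse 4 highest and mouse 1 next. The ribosomal RNA probes had a positive interaction too, whose part in that of Btg2 was not tested.

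The Gadd45 family split into a strongly moving, a moderately moving, and a weakly moving member. Gadd45g gave −1.86, −1.60, −2.30, and −1.81 in chow mice and −1.17, −1.49, −1.71, and −0.27 in 1B mice. It gave −1.53, −2.29, −0.31, and −2.45 in HFD mice and 1.03, 0.02, 1.23, 0.77, and 0.29 in HFD+1B mice. HFD+1B livers were all above the other groups, whereas chow, 1B, and HFD livers overlapped, with 1B mouse 4 and HFD mouse 3 the highest of those.

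Gadd45g rose 5.90-fold in HFD+1B over chow livers (log2 difference 2.56 ± 0.37, adjusted p = 0.000137), 4.97-fold over HFD livers (adjusted p = 0.00055), and 3.54-fold over 1B livers (adjusted p = 0.00436). Its differences from chow were 0.73 ± 0.39 in 1B and 0.25 ± 0.39 in HFD, and neither passed. The interaction was 1.58 ± 0.54 (adjusted p = 0.109), and it passed without HFD mouse 3 (2.02, adjusted p = 0.0251). Within slides, HFD+1B exceeded chow by 1.88 to 3.04 on 4 of 4.

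Gadd45b, a regulator of the p38 and JNK cascades that is induced by NF-κB and TGF-β, was the only member called in 1B minus chow. Cdkn1a differed more there (1.22), and for Bax all 1B livers were above all chow livers (0.30), but neither gene passed. The brightest Gadd45b probe gave −1.04, −1.04, −1.18, and −1.11 in chow mice and −0.61, −0.61, −0.37, and 0.25 in 1B mice. It gave −0.14, −0.81, −0.92, and −0.78 in HFD mice and −0.13, −0.25, 0.55, 0.23, and 0.05 in HFD+1B mice. Every liver of the 3 challenged groups was above every chow liver, and HFD mouse 1 overlapped the HFD+1B range.

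The 1B livers exceeded chow by 0.76 ± 0.20 (1.69-fold, adjusted p = 0.0415), but this call was lost without any of the 4 chow mice, 1B mouse 1, 3, or 4, HFD mouse 2 or 4, or HFD+1B mouse 5, with adjusted p-values of 0.0501 to 0.129. Without 1B mouse 4 the difference was 0.56. With the slide as a block the difference was 0.72 (adjusted p = 0.0787), and within 3 slides it was 0.42 to 0.81. HFD+1B livers exceeded chow by 1.19 ± 0.19 (2.27-fold, adjusted p = 0.000316). They exceeded HFD livers by 0.76 ± 0.19 (1.69-fold, adjusted p = 0.0107), and HFD minus chow was 0.43 (adjusted p = 0.187). The difference between HFD+1B and 1B was 0.43 (adjusted p = 0.188), and the interaction was −0.0017 ± 0.28 (adjusted p = 0.998). The dimmer probe was above background on 15 of 17 arrays and gave 1.11 for HFD+1B minus chow (adjusted p = 0.00256) and 0.59 for 1B minus chow (adjusted p = 0.251).

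Gadd45a, the family member best known as a p53 target and a binder of PCNA, differed least. It ranged from 0.38 to 0.90 in HFD+1B livers, from −0.14 to 0.73 in HFD livers, from −0.12 to 0.67 in 1B livers, and from −0.08 to 0.13 in chow livers. HFD+1B and chow livers did not overlap, and the 1B and HFD ranges reached into both. HFD+1B exceeded chow by 0.65 ± 0.18 (1.57-fold, adjusted p = 0.0186), a call lost without chow mouse 2 (adjusted p = 0.0539), and no other comparison passed for Gadd45a.

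**Figure D2:**
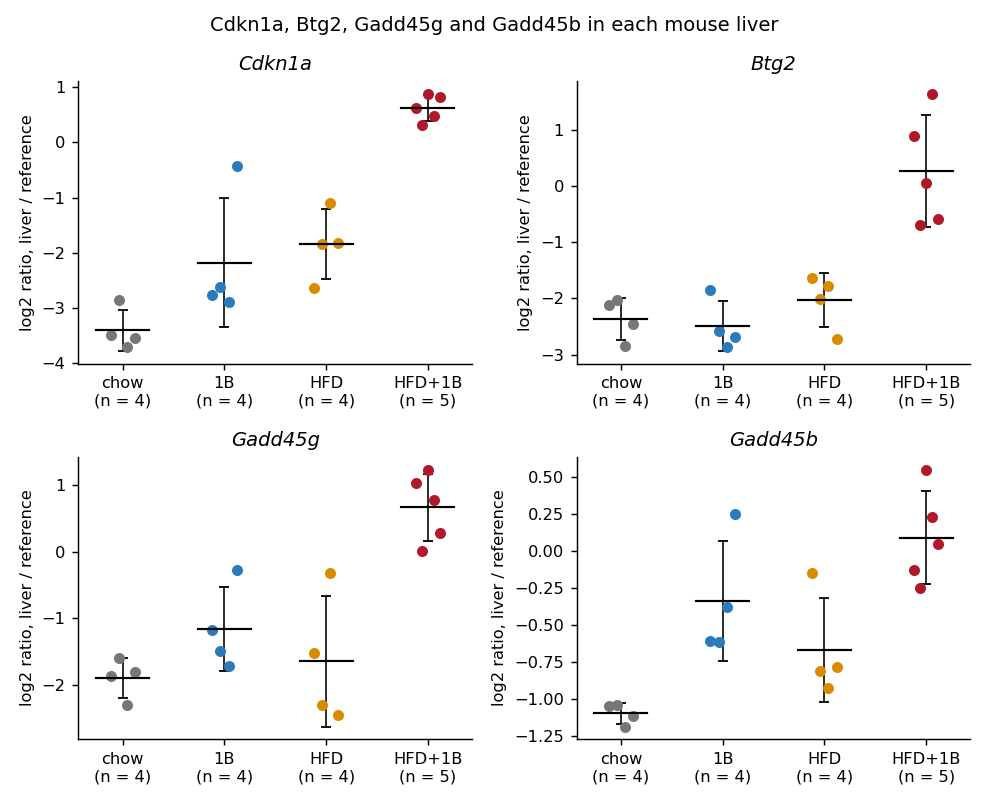
Log2 ratio of liver over reference (y axis) in each mouse for Cdkn1a, Btg2, Gadd45g, and Gadd45b, on the brightest probe, by group (x axis). Points are mice, horizontal lines are group means, and error bars are SD; for the first 3 genes all 5 HFD+1B mice lie above all other mice, and for Gadd45b all 4 chow mice lie below all other mice.

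Ccng1, which encodes cyclin G1 and is a p53 target that guides a phosphatase to Mdm2, had small differences with little spread. Its brightest probe gave −0.51, −0.54, −0.43, and −0.61 in chow mice and −0.92, −0.70, −0.55, and −0.67 in 1B mice. It gave −0.23, −0.09, −0.17, and −0.36 in HFD mice and 0.09, 0.18, −0.06, 0.10, and 0.06 in HFD+1B mice. The HFD+1B livers were above all HFD livers, which were above all chow and 1B livers.

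For Ccng1, HFD+1B livers exceeded chow livers by 0.60 ± 0.09 (1.51-fold, adjusted p = 0.000125), 1B livers by 0.78 ± 0.09 (adjusted p = 2.15e-05), and HFD livers by 0.29 ± 0.09 (adjusted p = 0.0287). HFD exceeded chow by 0.31 ± 0.09 (adjusted p = 0.0383), and the interaction was 0.47 ± 0.13 (adjusted p = 0.0431). The HFD call was lost without chow mouse 1, 2, or 4 or HFD mouse 1, 2, or 3, and the HFD+1B minus HFD call without HFD mouse 1 or 4 or HFD+1B mouse 2 or 4. The interaction passed only in the full set and without 1B mouse 3, HFD mouse 2, or HFD+1B mouse 3 or 5, with values of 0.40 to 0.50 over all other omissions. The dimmer probe had HFD livers highest, at 0.22 to 0.64, with an HFD minus chow difference of 0.50 (adjusted p = 0.0148), an HFD+1B minus chow difference of 0.18 (adjusted p = 0.372), and an interaction of −0.22 (adjusted p = 0.503). With the mean of both probes, the HFD+1B minus HFD difference was −0.02 and the HFD+1B minus chow difference was 0.39 (adjusted p = 0.00202).

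Bax encodes a pore-forming protein of the mitochondrial outer membrane that promotes apoptosis. It gave −0.54, −0.35, −0.48, and −0.46 in chow mice and −0.19, −0.23, −0.17, and −0.03 in 1B mice. It gave −0.17, −0.04, 0.21, and 0.04 in HFD mice and −0.25, 0.24, 0.06, 0.25, and 0.25 in HFD+1B mice. Every challenged liver was above every chow liver, while the challenged groups overlapped each other.

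Bax rose in HFD by 0.47 ± 0.11 (1.38-fold, adjusted p = 0.0141) and in HFD+1B by 0.56 ± 0.11 (1.48-fold, adjusted p = 0.0013), both over chow. The HFD call was lost without HFD mouse 3 (0.40, adjusted p = 0.0556), and after centring arrays on the median, without loess, it was 0.26 (adjusted p = 0.238). The 1B difference was 0.30 ± 0.11 (adjusted p = 0.189), and HFD+1B minus HFD was 0.10, with a 95% confidence interval of −0.13 to 0.32.

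Phlda3 encodes a small pleckstrin homology protein that competes with Akt for membrane lipids. It gave −1.25, −1.003, −1.04, and −1.34 in chow mice and −1.31, −1.01, −1.25, and −0.64 in 1B mice. It gave −0.40, −0.11, 0.57, and −0.20 in HFD mice and −1.08, 0.70, −0.44, 1.15, and 0.86 in HFD+1B mice. All HFD livers were above all chow livers, but HFD+1B livers were widely spread, and mouse 1 lay within the chow range.

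Phlda3 rose in HFD+1B by 1.39 ± 0.34 over chow (2.63-fold, adjusted p = 0.00973) and by 1.29 ± 0.34 over 1B (adjusted p = 0.0227). The latter call was lost without 1B mouse 1, 2, or 3 or HFD+1B mouse 2, 4, or 5, with adjusted p-values of 0.0512 to 0.0707. On the deposited log2 ratios the same differences were 2.21 and 1.99. HFD minus chow was 1.12 ± 0.36 (adjusted p = 0.0587), which passed without HFD+1B mouse 1 (adjusted p = 0.0146) or mouse 4 (adjusted p = 0.0387), and HFD+1B minus HFD was 0.27 (adjusted p = 0.638).

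Stellate cell markers followed the same order of HFD+1B mice as Phlda3. For Bax, mouse 1 was likewise lowest and mouse 3 next, but mice 2, 4, and 5 were nearly tied (0.24 to 0.25). The mean log2 ratio of the 11 markers was −0.28, 0.39, 0.04, 0.73, and 0.57 in HFD+1B mice 1 to 5, 0.0027 to 0.20 in HFD livers, −0.50 to −0.38 in 1B livers, and −0.74 to −0.46 in chow livers. All 11 markers were above background on every array. In HFD+1B minus chow, 8 of 11 rose and none fell, against 8.90% and 7.42% of all genes. Those that rose included Col1a1 (2.19, adjusted p = 0.00205), Lrat (1.04), and Des (0.58). In HFD minus chow, 5 of 11 rose, against 4.48% of all genes. The part of stellate cells in the Phlda3 and Bax values was not tested.

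**Figure D3:**
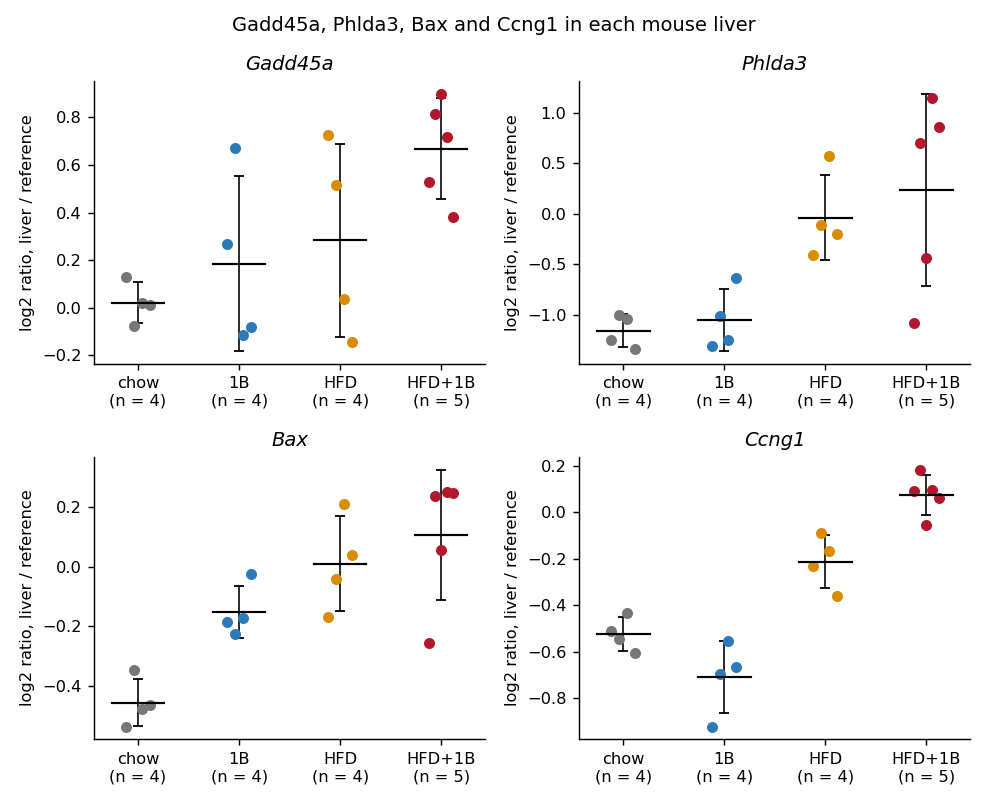
Log2 ratio of liver over reference (y axis) in each mouse for Gadd45a, Phlda3, Bax, and Ccng1, on the brightest probe, by group (x axis). Points are mice, horizontal lines are group means, and error bars are SD; for Bax and Gadd45a the HFD+1B mice lie above all chow mice, whereas HFD+1B mouse 1 falls into the chow range of Phlda3.

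Mdm2 and Trp53, at the head of the pathway, had no difference between HFD+1B and chow livers that passed. The brightest Mdm2 probe ranged from −0.48 to −0.21 in HFD livers, from −0.33 to 0.32 in HFD+1B livers, from −0.25 to 0.16 in 1B livers, and from 0.01 to 0.17 in chow livers. HFD livers were below all chow livers on it, by 0.44 ± 0.13 (1.36-fold lower, adjusted p = 0.0401), and HFD+1B exceeded HFD livers by 0.40 ± 0.12 (adjusted p = 0.0322). The other Mdm2 probe gave 0.20 and 0.04 for these differences, and neither passed. The first call was lost without any of the 4 chow mice or HFD mouse 2, 3, or 4, and the second without HFD mouse 2, 3, or 4 or HFD+1B mouse 1, 2, or 4. Both were lost with the slide as a block (adjusted p = 0.0628 and 0.0544). HFD+1B minus chow was −0.04, with a 95% confidence interval of −0.30 to 0.22.

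The 2 Trp53 probes differed in direction. The brightest gave 0.15, −0.41, −0.12, and −0.09 in chow mice and −0.04, 0.06, 0.22, and −0.14 in 1B mice. It gave −0.60, −0.16, −1.005, and −0.72 in HFD mice and 0.24, 0.35, −0.10, 0.64, and −0.20 in HFD+1B mice. On this probe HFD livers were lowest, and HFD+1B exceeded HFD by 0.81 ± 0.17 (1.75-fold, adjusted p = 0.00418), a difference that was 0.23 (adjusted p = 0.655) in Cy5 alone.

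The second Trp53 probe gave −0.04, −0.01, −0.06, and 0.10 in chow mice and 0.33, 0.38, 0.21, and 0.18 in 1B mice. It gave 0.16, 0.43, 0.30, and 0.52 in HFD mice and −0.0008, −0.04, 0.01, 0.06, and 0.14 in HFD+1B mice. On this probe HFD livers were above chow livers by 0.36 ± 0.09 (adjusted p = 0.0166), HFD+1B fell by 0.32 on the log2 scale compared with HFD (adjusted p = 0.0134), and the interaction was −0.60 ± 0.12 (adjusted p = 0.0138). HFD+1B minus chow was 0.30 on the first probe and 0.04 on the second, and neither passed. The direction of Trp53 between HFD+1B and HFD livers thus depended on the probe.

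The probes are 60 bases long, and the first 30 bases of each are shown to identify them.
Trp53, brightest probe: gcattcaggccctcatcctcctccttccca
Trp53, second probe: accgccgtacagaagaagaaaatttccgca

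Of the brightest probe, 44 bases matched the opposite strand of the RefSeq window of Wrap53, a neighbouring gene that is transcribed from the other strand, at 250 to 207 bases before the Wrap53 start. The second probe matched no window. The 44 bases lie before that Wrap53 start, so a transcript from it would not hold them. The methods name a kit for double-stranded cDNA and the labels a kit for cDNA labelling, and neither states that strand was kept. Any transcript of the opposite strand over these bases could thus not be told apart from Trp53 on this probe. Whether there was one was not tested. The probe for Wrap53 itself had differences of 0.08 for 1B minus chow, 0.19 for HFD minus chow, and 0.02 for HFD+1B minus chow, and none passed. The probe for Trp53-ps, a pseudogene copied from Trp53, fell by 0.43 in HFD+1B compared with HFD livers (adjusted p = 0.0159). Whether the Trp53 probes also bind transcripts of this copy was not tested, so the Trp53 values are uncertain.

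**Figure D4:**
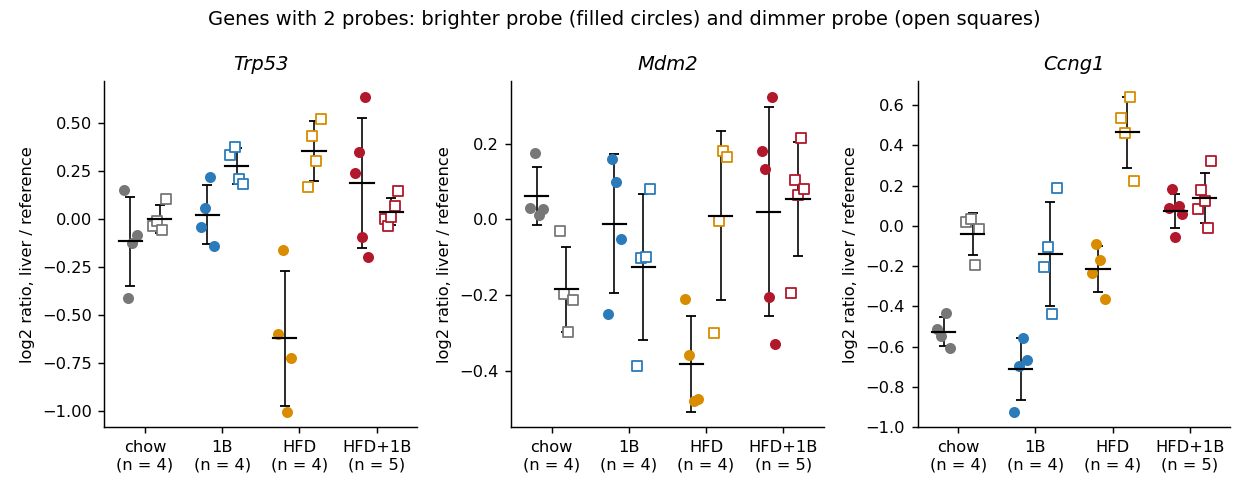
Log2 ratio of liver over reference (y axis) in each mouse for Trp53, Mdm2, and Ccng1, by group (x axis), with the brighter probe as filled circles and the dimmer as open squares. Horizontal lines are group means and error bars are SD; in HFD livers the brighter Trp53 probe lies at −1.005 to −0.16 and the dimmer at 0.16 to 0.52.

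Of 32 other known p53 targets tested, 9 rose and none fell in HFD+1B compared with chow livers, against 8.90% and 7.42% of all genes, with a median log2 difference of 0.20. They included Ddit4, an inhibitor of mTORC1 that also responds to glucocorticoids and hypoxia (2.30, adjusted p = 2.7e-05), Gdf15, a stress cytokine (1.92, adjusted p = 1.37e-05), Aen, an apoptosis-associated nuclease (0.75, adjusted p = 0.000381), and Ddb2, a DNA damage sensor (0.57, adjusted p = 0.00277). None of the 32 passed in 1B compared with chow livers, where 2.09% of all genes rose and 2.05% fell. Of the 32, 6 had an unadjusted p of 0.05 or less there in limma. In HFD compared with chow livers, 4 rose and 5 fell, against 4.48% and 6.56% of all genes. Those that fell were Trp53inp1 (−1.24), Pidd1 (−1.24), Bbc3 (−1.12), Sesn2 (−0.68), and Mgmt (−0.55). The 3 ribosomal RNA probes fell there too, with a median of −3.68, and their part in these values was not tested. Ddit4 resembled Btg2 in that it did not differ beyond its spread in 1B (−0.09) or HFD (−0.21), with an interaction of 2.60 ± 0.41 (adjusted p = 0.00377), whereas Gdf15 and Aen also rose in HFD livers (0.85, adjusted p = 0.0285, and 0.72, adjusted p = 0.00237). The ribosomal RNA probes also had a positive interaction, and their part in that of Ddit4 was not tested.

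Among 20 regulators of p53, 1 rose (8.90% of all genes) and 3 fell (7.42%) in HFD+1B compared with chow livers, with a median of −0.09. The ubiquitin ligase Rchy1 rose by 0.50, and the deacetylase Sirt1, the kinase Atm, and the p53-binding protein Trp53bp1 fell by 0.58, 0.35, and 0.39 on the log2 scale. In HFD compared with chow livers, where 4.48% of all genes rose and 6.56% fell, 5 of 20 fell and none rose, among them Sirt1 by 0.78 (adjusted p = 0.00138) and Trp53bp1 by 0.60 (adjusted p = 0.0051). The 3 ribosomal RNA probes fell in the same comparison, with a median of −3.68, and their part in these values was not tested.

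Of 15 other cell cycle inhibitors and antiproliferative genes tested, 2 rose and 3 fell in HFD+1B compared with chow livers, when 8.90% of all genes rose and 7.42% fell, with a median of 0.09. Btg3, of the same family as Btg2, rose by 2.32 ± 0.27 (adjusted p = 1.59e-05) and also exceeded HFD livers by 2.00 (adjusted p = 0.000148). Tob1, another member of that family, fell by 1.104, Gas1 fell by 1.14, and the retinoblastoma relative Rbl2 fell by 0.71. These 3 genes also fell in 1B compared with chow livers, by 1.15, 1.17, and 0.53 (adjusted p = 0.013, 0.00924, and 0.00924).

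Of 17 binding partners of Gadd45 proteins and stress kinases, 1 rose and 1 fell in HFD+1B compared with chow livers, near the shares of all genes (8.90% and 7.42%), with a median of 0.08. The p38 activator Map2k6 fell by 1.48 (adjusted p = 0.000413) in HFD+1B, by 1.47 in 1B (adjusted p = 0.00265), and by 0.98 in HFD livers (adjusted p = 0.0232), and the p38 isoform Mapk13 rose by 0.42 in HFD+1B livers (adjusted p = 0.0449).

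Of 16 relatives of Bax tested, 4 rose and 1 fell in HFD+1B compared with chow livers (8.90% and 7.42% of all genes), with a median of −0.02. Those that rose were the effector Bak1 (0.69, adjusted p = 0.00174), the survival genes Bcl2l1 (1.74, adjusted p = 0.00637) and Bcl2a1b (0.71, adjusted p = 0.00692), and the BH3-only gene Bcl2l11 (0.44, adjusted p = 0.0191). Bcl2a1b has near-identical copies in the mouse genome, so its value may hold signal of those. Another list held 23 cell cycle genes taken as repressed through p53, of which 4 rose and none fell in HFD+1B compared with chow livers. Among all genes the shares were 8.90% and 7.42%, and the median of the 23 genes was 0.13. The 4 genes were Ccnb2 (0.77), Ccne1 (0.50), Ccnd1 (0.47), and Top2a (0.42).

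**Figure D5:**
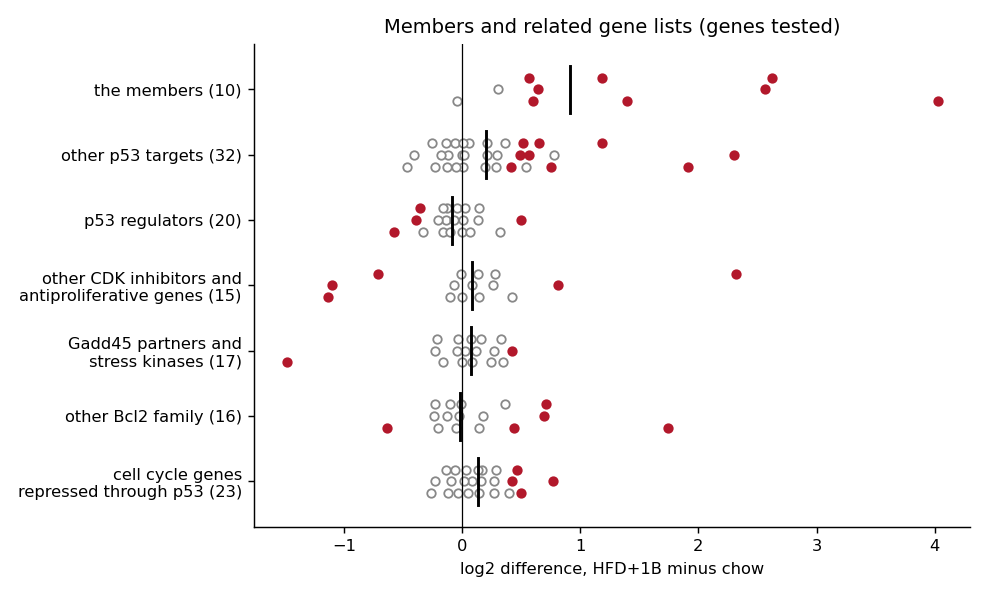
Log2 differences between HFD+1B and chow livers (x axis) of the 10 genes and of the genes tested in 6 related lists (rows, number of genes in brackets). Filled points passed at an adjusted p of at most 0.05, open points did not, and black bars are medians, which are 0.92 for the 10 genes and −0.09 to 0.20 for the lists; the vertical offset within a row only separates points.

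The genes closest in pattern were ranked by the root mean square difference of mean-centred log2 ratios over 17 arrays, among 15354 genes above background on all of them. Closest to Cdkn1a were Tgm2 (0.60), Tacc2 (0.69), and Mrap (0.72), and closest to Gadd45g were Il1r1 (0.41), Chac1 (0.45), and Mrap (0.45). For Btg2 they were Tifa (0.46), Hist2h3c1 (0.50), and Hist1h3d (0.53), and for Gadd45b Zc3h12d (0.20), Arrdc4 (0.22), and Chd1l (0.22). Those closest to Phlda3 were Ccdc80 (0.19), Klrd1 (0.22), and Sparc (0.24), and 2 of them, Ccdc80 and Sparc, encode secreted matrix proteins. The measure depends on the size of a gene's differences, so values are not comparable between members.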

How the data were processed

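Gene expression was measured in 17 mouse livers on 2-color Agilent 60-mer arrays. The authors extracted spot values with Agilent Feature Extraction 11.5.1.1, and the deposited scanner files hold median signal and background of both channels as raw intensity. The authors also deposited log2 ratios of liver over reference for 41146 of 41174 non-control probes, which equal the log2 ratios of their background-subtracted and dye-normalized signals to within 2.74e-06 and served as an alternative.

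Signals of 43379 non-control spots were corrected with normexp (offset 50), spots marked as outliers were left out, log2 ratios were loess-normalized array by array, and replicate spots of a probe were averaged. The test was limited to probes with Cy5 well above background on 4 or more of 17 arrays where every group had a value (34664 probes). The offset draws small ratios of dim probes toward 0. All 17 arrays entered a fit of group means in limma 3.58.1 and R 4.3.3 (lmFit and eBayes, 13 residual degrees of freedom), and p-values were adjusted with the Benjamini-Hochberg method over all probes tested, separately for each comparison. The probe brightest in Cy5 stood for a gene. ± is SE for differences and SD for group means.

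The 10 genes were named with every probe. Of each related list the 4 genes with the smallest adjusted p among those called in HFD+1B minus chow were named, and for members that rose at least 2-fold there, the 3 genes of closest pattern. The neutrophil markers, Col1a1, Lrat, Des, and the p53 targets that fell in HFD compared with chow livers were named after their values were seen. The members and lists were chosen with earlier results of these data known. Symbols came from the authors' table. Promoter windows came from RefSeq (GRCm38.p6), and the array was annotated on an older build, so no other coordinates are given. Alternatives were other background corrections, normalizations, filters, probe rules, blocks, weights, and tests, and omission of each mouse in turn. The fit was tested on simulated data. The number of arrays limits the precision, and no 2 arrays correlated above 0.869 over probes.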

Additional observations from a re-analysis of the deposited data

Results flagged for a closer look

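Cdkn1a in 1B livers was set by mouse 4, which was far above the other 3 mice (−0.44 against −2.90 to −2.62). Its gap to the next mouse was 0.887 of the range of the group. The same mouse was the highest of its group in 5 of the 10 genes. Mdm2 on its brightest probe was highest in chow mouse 2 (0.17 against 0.01 to 0.03), with a gap of 0.893 of the range of the group. Of 40 combinations of gene and group these 2 stood out, and chance alone gives about 1 in 20.

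The ethanol effect differed between the diets for Btg2, by 2.43 ± 0.56 in log2 ratio (adjusted p = 0.0227), since 1B minus chow was −0.13 and HFD+1B minus HFD was 2.30. It also differed for Ccng1 on its brightest probe, by 0.47 ± 0.13 (adjusted p = 0.0431), where the differences were −0.19 and 0.29. The dimmer Ccng1 probe had an interaction of −0.22 (adjusted p = 0.503 in limma). With the mean of both probes it was 0.12 (adjusted p = 0.587), so this result depended on the probe. The interactions of the other 8 genes did not pass, which does not show that their ethanol effects were alike on both diets. All 3 ribosomal RNA probes had a positive interaction that passed, with a median of 4.58. Their part in the Btg2 and Ccng1 interactions was not tested.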

How the results depend on the processing

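In HFD+1B minus chow, 8 genes passed under every background correction, normalization of the ratio, filter, and block tried, 5 in Cy5 alone, 5 at the 2-fold rule, and 6 by the Tukey test of the methods' analysis of variance after Benjamini-Hochberg adjustment. Smaller counts depended on the setting. For 1B minus chow the 1 gene became 0 on the deposited log2 ratios, in Cy5 alone, without a filter, with the mean of all probes, with the slide as a block, and by the adjusted Tukey test, and 3 with array weights. For HFD minus chow the 4 genes became 2 at the 2-fold rule, with median centring (1 higher, 1 lower), and on the deposited log2 ratios, and 0 in Cy5 alone and by the adjusted Tukey test. For HFD+1B minus HFD the 7 genes became 3 at the 2-fold rule, in Cy5 alone, and by the adjusted Tukey test, and 4 with the mean of all probes. For HFD+1B minus 1B the 5 genes became 3 in Cy5 alone and by the adjusted Tukey test. For the interaction the 2 genes became 1 with an offset of 10, on the deposited log2 ratios, with the filter on all arrays, and with the mean of all probes, 4 with median centring, and 0 in Cy5 alone. The interaction count was 3 at the 2-fold rule. The cause of these changes was not tested. Omission of each mouse gave 0 to 1, 0 to 5, 7 to 8, 5 to 7, 4 to 6, and 0 to 2 genes in these comparisons, in the order 1B, HFD, and HFD+1B minus chow, HFD+1B minus HFD, HFD+1B minus 1B, and interaction.

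Ccng1 in HFD+1B minus HFD was reversed with the mean of its probes (−0.0191, adjusted p = 0.896). Of the values of single genes under all settings, 129 lost their call, 28 gained one, and 1742 kept theirs or remained without one. Single mice also decided calls that had not passed, namely Gadd45a in HFD+1B minus 1B without 1B mouse 2 (adjusted p = 0.0306) and in HFD+1B minus HFD without HFD mouse 1 (0.0467), Gadd45b in HFD+1B minus 1B without 1B mouse 4 (0.0341), Bax in HFD+1B minus 1B without HFD+1B mouse 1 (0.0198), and Trp53 in HFD minus chow without HFD mouse 2 (0.0285).

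Replicate numbers were not taken to pair the samples, since the labels tie them to no litter or day and deviations of same-numbered mice correlated at −0.13 to 0.48 over probes, not above 0.1 in every pair. The median correlation was 0.18 for same-numbered and −0.05 for other mice, and 0.20 for mice on the same slide and −0.04 for those on different slides. With the replicate block the counts were 0, 5, 8, 7, 6, and 2 in the same order, and Gadd45b in 1B minus chow had an adjusted p of 0.0531. All arrays were scanned with 1 dye orientation and at 4 or 5 mice a group, and dim genes such as Phlda3 have differences that grow with less offset (1.84 at 10 against 1.39 in HFD+1B minus chow).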
